A study of Homo sapiens with 15 samples.

Results

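Transcripts of the receptors for insulin and the insulin-like growth factors (IGFs), and of the proteins that dock onto them, were measured by RNA-seq in 15 libraries of 12Z cells, an immortalized human endometriotic epithelial cell line. The 10 genes were chosen by name, from their role in the pathway: INSR, IGF1R, IGF2R, IRS1, IRS2, SHC1, SH2B3, GRB10, GRB14 and PTPN1. They were 10 of 60617 gene identifiers counted in each library, and all 10 were among the 23184 genes that averaged 1 count or more per library, which were the genes tested. There were 5 groups of 3 libraries, described by the study as independent experiments. Cells carried siRNA against RSAD2 (siRSAD2) with a pBabe plasmid for PIK3CA H1047R and insulin, siRSAD2 with H1047R and vehicle, siRSAD2 with empty pBabe vector and insulin, siRSAD2 with empty vector and vehicle, or a non-targeting siRNA, the empty vector and vehicle. The siRNA was a commercial pool and the plasmid a transient addition to cells that keep their own PIK3CA. The plasmid followed the siRNA after 24 h. After 24 h more and a 4 h serum-free period, all cells received serum-free medium with 100 nM insulin or vehicle for 24 h. RSAD2 encodes viperin, an interferon-induced antiviral protein, and H1047R is an activating mutation of the catalytic PI3K subunit. Insulin and H1047R were each tested only in cells with siRSAD2, so no effect of either with RSAD2 intact was analysed here.

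The receptor encoded by INSR and that encoded by IGF1R are related tyrosine kinases. On binding insulin or an IGF they phosphorylate docking proteins, chiefly IRS1 and IRS2, which recruit PI3K and so activate AKT. AKT in turn phosphorylates FOXO transcription factors, which then leave the nucleus, and INSR and IRS2 are known FOXO targets in other tissues. IGF2R is a different kind of receptor, one that carries IGF2 and mannose 6-phosphate-tagged enzymes to the lysosome and has no kinase. SHC1 links the receptors to the RAS-MAPK arm. SH2B3 (LNK), GRB10, GRB14 and the phosphatase PTPN1 (PTP1B) are best known as brakes on receptor signalling.

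All 10 are protein-coding genes, and their counts cover all annotated exons. Positions are those of GENCODE 44 on hg38, and identifiers carry the versions of the deposited counts. The receptors are INSR (ENSG00000171105.14) at chr19:7112255-7294414 on the minus strand, IGF1R (ENSG00000140443.15) at chr15:98648539-98964530 on the plus strand and IGF2R (ENSG00000197081.14) at chr6:159969082-160113507 on the plus strand. The docking proteins and adaptors are IRS1 (ENSG00000169047.5) at chr2:226731312-226799820 on the minus strand, IRS2 (ENSG00000185950.9) at chr13:109752695-109786583 on the minus strand, SHC1 (ENSG00000160691.18) at chr1:154962298-154974395 on the minus strand and SH2B3 (ENSG00000111252.11) at chr12:111405923-111451623 on the plus strand. The other inhibitors are GRB10 (ENSG00000106070.19) at chr7:50590063-50793462 on the minus strand, GRB14 (ENSG00000115290.10) at chr2:164492417-164621482 on the minus strand and PTPN1 (ENSG00000196396.10) at chr20:50510321-50585241 on the plus strand. At most 0.943% of the stranded counts of any of the 10 fell on the opposite strand.

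Libraries held 16.1 to 39.7 M gene counts (median 24.3 M). RSAD2 averaged 0.326 ± 0.324 CPM (counts per M gene counts, scaled by TMM, the trimmed mean of M values) in siRSAD2 cells and 3.29 ± 0.359 CPM in non-targeting cells, both with empty vector and vehicle (SD, n = 3 each). In the other siRSAD2 groups it averaged 0.837 ± 0.0574 CPM with H1047R and insulin, 0.899 ± 0.446 CPM with H1047R and vehicle and 0.331 ± 0.176 CPM with empty vector and insulin. Averaged over treatments, RSAD2 was higher with H1047R by 1.43 ± 0.34 on the log2 scale (edgeR adjusted p = 0.0165), and its part in the H1047R results was not tested. PIK3CA averaged 211 ± 12.2 CPM in H1047R cells and 89.0 ± 4.05 CPM in empty-vector cells under vehicle, and 163 ± 2.08 against 79.2 ± 2.53 CPM under insulin (SD, n = 3 each). Its fall with insulin passed an edgeR adjusted p below 0.05 with H1047R and did not with empty vector. The part of this fall in the insulin and interaction results was not tested. The epithelial label was borne out in part: KRT8 lay between 821 and 1106 CPM, while EPCAM and CDH1 did not pass 0.617 and 0.959 CPM, and COL1A1, a stromal marker, lay between 2085 and 2897 CPM. All 8 stromal markers of the list averaged at least 1 CPM, with a summed level of 3769 to 4148 CPM in H1047R cells with insulin, 3624 to 3645 with H1047R and vehicle, 3446 to 4009 with empty vector and insulin, 3818 to 3863 with siRSAD2, empty vector and vehicle, and 3376 to 3740 in non-targeting cells. The summed endothelial and immune markers stayed between 7.02 and 12.3 CPM and between 4.06 and 12.3 CPM over the 15 libraries. In 7 libraries, all 6 with H1047R and library 3 of the empty-vector insulin group, 6.11 to 6.50% of the stranded counts fell on the strand opposite to the library type, against 5.77 to 5.89% in the other 8. H1047R and this split cannot be told apart under vehicle. Library 2 of the empty-vector insulin group stood apart from its group in the spread of its counts over all genes.

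**Figure D1:**
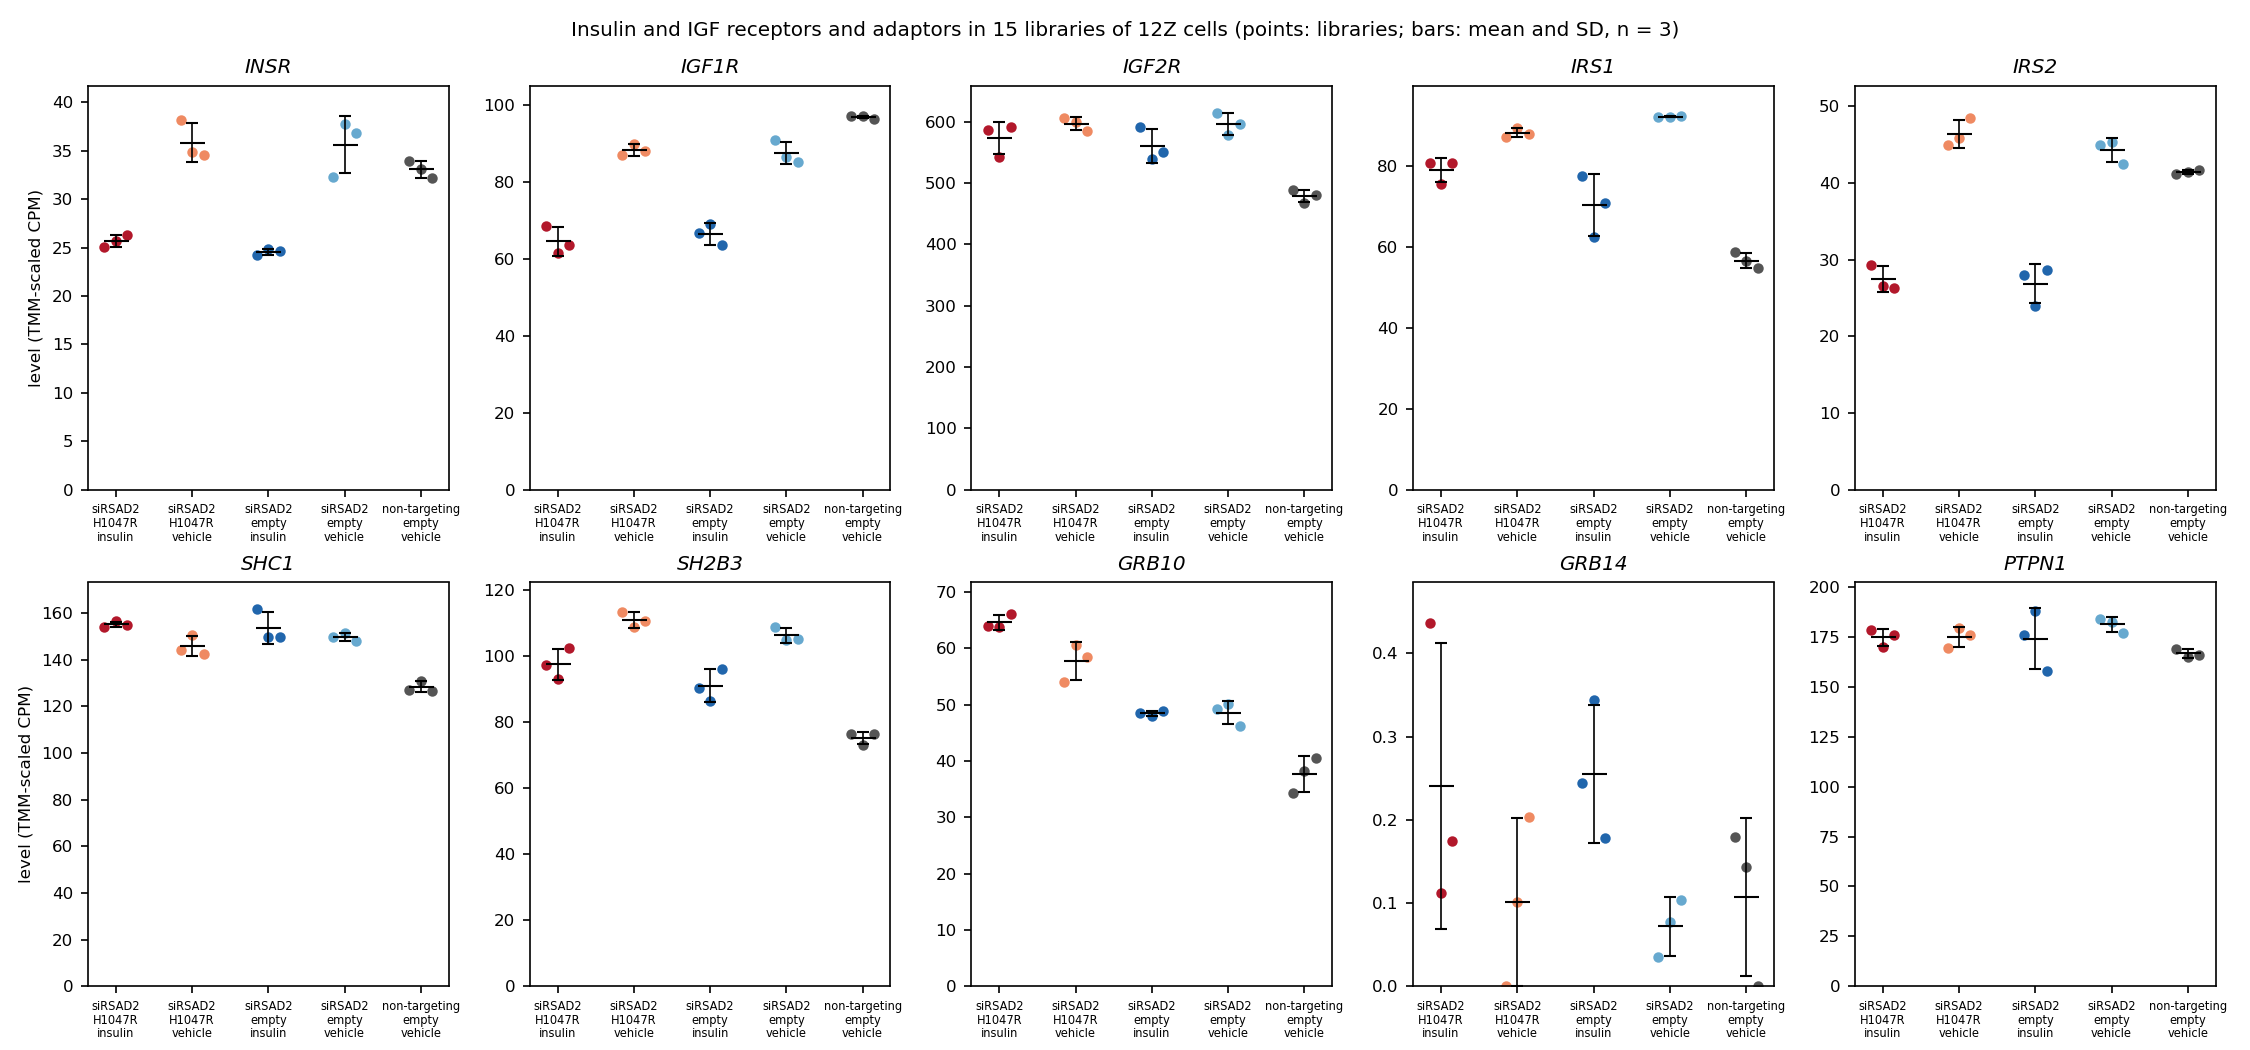
Level of each of the 10 genes (y axis, TMM-scaled CPM from 0) in each library (points) of the 5 groups (x axis), with mean and SD of 3 libraries as bars. INSR, IGF1R and IRS2 were lower in both insulin groups than in every vehicle group, IRS1 and SH2B3 were lowest in non-targeting cells, and GRB10 was highest in H1047R cells with insulin.

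Levels of different genes were set side by side per kilobase of exon. The length used was that of all annotated exons of a gene together, so comparisons are approximate where transcripts hold only part of them. On this scale PTPN1 was the most abundant of the 10 in each of the 5 groups, with group means of 41.3 to 44.8 CPM per kb. SHC1 followed at 29.5 to 35.7, IGF2R at 21.2 to 26.4 and SH2B3 at 13.2 to 19.5 CPM per kb. The signalling receptors and their docking proteins were scarcer: IRS1 had group means of 5.65 to 9.18, IGF1R of 4.62 to 6.94, GRB10 of 3.85 to 6.59, IRS2 of 3.29 to 5.69 and INSR of 2.27 to 3.31 CPM per kb. IGF1R was thus above INSR in each group, with an IGF1R to INSR ratio of 1.96 ± 0.150 with H1047R and insulin, 1.92 ± 0.131 with H1047R and vehicle, 2.10 ± 0.0874 with empty vector and insulin, 1.92 ± 0.231 with siRSAD2, empty vector and vehicle and 2.27 ± 0.0542 in non-targeting cells (SD, n = 3 each). GRB14 was close to undetected, with 57 counts in all 15 libraries and at most 9 in any of them. It had 0 counts in 2 libraries, which allows up to 0.129 CPM in non-targeting library 6 and up to 0.125 CPM in H1047R vehicle library 1, for counting error only. Few reads were counted for the ligands: INS had 0 counts, IGF1 had 2 and IGF2 had 12 over the 15 libraries, all under the filter. Reads that fell on more than 1 gene (3.05 to 3.77% of read pairs) were left out, so these counts may be too low.

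Across all 5 groups, 8 of the 10 genes differed at an adjusted p below 0.05 (edgeR quasi-likelihood F test over 23184 genes), where 28.4% of all tested genes did. The exceptions were PTPN1 (adjusted p = 0.407) and GRB14 (0.426). The pairs of groups below share libraries, so each is given with its own values.

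The first question was whether insulin altered the transcripts of its own receptor and adaptors. In siRSAD2 cells with empty vector, insulin lowered 5 of the 10 genes and raised none, and in siRSAD2 cells with H1047R it lowered 4 and raised none (edgeR). The background was 2.47% of tested genes in either direction and 1.99% lower with H1047R, and 6.28% and 4.19% with empty vector. In bulk RNA, fewer cells of a kind and less RNA per cell cannot be told apart. The 4 genes lowered with both vectors were IRS2, INSR, IGF1R and SH2B3, and IRS1 was lowered past the threshold with empty vector. The median log2 fold change of the 10 genes was -0.16 with empty vector and -0.11 with H1047R, while that of all tested genes was 0.00 in both. Averaged over vectors, insulin lowered the same 5 genes as with empty vector (8.37% of tested genes called, 5.22% lower).

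IRS2, a docking protein prominent in liver and pancreatic beta cells, fell the furthest of the 10. Its level was 29.3, 26.6 and 26.3 CPM with insulin and H1047R, against 44.9, 45.8 and 48.4 CPM with vehicle and H1047R. With empty vector it was 27.9, 24.0 and 28.7 CPM under insulin, against 44.9, 45.3 and 42.5 CPM under vehicle. All 6 insulin libraries lay under all 6 siRSAD2 vehicle libraries, and also under the non-targeting libraries at 41.2, 41.4 and 41.7 CPM. Over all tested genes, 10.5% had insulin libraries wholly below vehicle libraries with H1047R and 9.6% with empty vector. The log2 fold change was -0.76 ± 0.07 (SE) with H1047R (edgeR adjusted p = 8.83e-09) and -0.72 ± 0.07 with empty vector (9.66e-09), that is, 41.0% and 39.4% lower. By p, IRS2 ranked 14 and 50 among the 23184 genes in these comparisons.

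INSR, the insulin receptor itself, followed the same order of groups. It stood at 25.0, 25.6 and 26.3 CPM with insulin and H1047R, against 38.2, 34.8 and 34.5 CPM with vehicle and H1047R. With empty vector it stood at 24.2, 24.9 and 24.6 CPM under insulin, against 32.3, 37.8 and 36.9 CPM under vehicle. The insulin and vehicle libraries did not overlap with either vector, and all 6 insulin libraries lay between 24.2 and 26.3 CPM. The log2 fold changes were -0.48 ± 0.07 with H1047R (edgeR adjusted p = 2.71e-05) and -0.54 ± 0.07 with empty vector (3.31e-06).

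IGF1R, which prefers IGF1 and binds insulin weakly, was lower as well. It had 68.6, 61.4 and 63.4 CPM with insulin and H1047R, against 86.8, 89.8 and 88.0 CPM with vehicle and H1047R. With empty vector it had 66.7, 69.1 and 63.5 CPM under insulin, against 90.8, 86.5 and 85.2 CPM under vehicle. No insulin library reached any vehicle library. The log2 fold changes were -0.45 ± 0.05 with H1047R (edgeR adjusted p = 7.67e-07) and -0.40 ± 0.05 with empty vector (4.26e-06). For IRS2, INSR and IGF1R the calls held with both vectors under each of the alternative settings run, among them leaving out any single library.

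IRS1, the other main docking protein, fell with empty vector. It had 77.5, 62.4 and 70.9 CPM with insulin and empty vector, against 91.9, 92.0 and 92.1 CPM with vehicle and empty vector, a log2 fold change of -0.39 ± 0.06 (edgeR adjusted p = 4.2e-05). With H1047R it had 80.6, 75.5 and 80.5 CPM under insulin, against 87.1, 89.3 and 87.8 CPM under vehicle. These libraries did not overlap either, but the log2 fold change of -0.16 ± 0.06 did not pass the threshold (edgeR adjusted p = 0.217). When only these 2 groups were fitted it was past it (-0.16 ± 0.05, edgeR adjusted p = 0.0275). Among the 7 libraries with the higher opposite-strand share it was -0.15 ± 0.05. Those 7 include all libraries of these 2 groups, so the 2 fits rest largely on the same libraries.

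SH2B3, an adaptor that restrains cytokine and growth factor receptors, had smaller falls. It stood at 97.3, 93.1 and 102 CPM with insulin and H1047R, against 113, 109 and 111 CPM with vehicle and H1047R, a log2 fold change of -0.18 ± 0.05. With empty vector it stood at 90.5, 86.4 and 96.3 CPM under insulin, against 109, 105 and 105 CPM under vehicle, a log2 fold change of -0.23 ± 0.05 (edgeR adjusted p = 0.00516). That call was lost when only these groups were fitted (-0.24 ± 0.06, edgeR adjusted p = 0.0664). The call with H1047R was at the edge of the threshold (edgeR adjusted p = 0.0491) and was lost in 16 of 26 alternatives, with adjusted p up to 0.289 when H1047R insulin library 2 was left out.

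The remaining members did not pass the test for insulin with either vector. IGF2R had log2 fold changes of -0.06 ± 0.04 with H1047R and -0.09 ± 0.04 with empty vector, SHC1 of 0.09 ± 0.04 and 0.04 ± 0.04, and PTPN1 of 0.00 ± 0.05 and -0.06 ± 0.05, in the same order. GRB10, which binds the activated receptors and blocks their signalling, had 0.16 ± 0.06 with H1047R (edgeR adjusted p = 0.222) and 0.00 ± 0.06 with empty vector. Among the 7 libraries with the higher opposite-strand share, its value with H1047R was 0.17 ± 0.05 and passed (edgeR adjusted p = 0.0439). The 95% intervals for PTPN1, from -0.11 to 0.10 with H1047R and from -0.16 to 0.05 with empty vector, included 0.

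Because INSR, IGF1R, IRS1 and IRS2 were the receptor and docking genes lowered by insulin, the 250 bases before the start of each are shown, from RefSeq on GRCh38.p14 and in the direction of transcription. They lie at chr19:7294415-7294664 (INSR, minus strand), chr15:98648289-98648538 (IGF1R, plus strand), chr2:226799821-226800070 (IRS1, minus strand) and chr13:109786584-109786833 (IRS2, minus strand). Capitals mark the GC box GGGCGG and the FOXO core AAACA, on either strand.
INSR: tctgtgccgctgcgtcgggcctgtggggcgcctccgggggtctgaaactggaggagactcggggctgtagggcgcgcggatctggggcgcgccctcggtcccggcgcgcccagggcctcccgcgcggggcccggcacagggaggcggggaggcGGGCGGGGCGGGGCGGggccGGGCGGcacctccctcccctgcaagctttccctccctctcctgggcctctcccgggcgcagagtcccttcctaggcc
IGF1R: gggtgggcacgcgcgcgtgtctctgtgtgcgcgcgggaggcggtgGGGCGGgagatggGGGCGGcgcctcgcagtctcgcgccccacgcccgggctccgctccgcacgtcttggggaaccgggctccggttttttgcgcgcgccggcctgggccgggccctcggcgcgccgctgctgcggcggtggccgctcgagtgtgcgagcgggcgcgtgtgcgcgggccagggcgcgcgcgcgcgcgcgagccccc
IRS1: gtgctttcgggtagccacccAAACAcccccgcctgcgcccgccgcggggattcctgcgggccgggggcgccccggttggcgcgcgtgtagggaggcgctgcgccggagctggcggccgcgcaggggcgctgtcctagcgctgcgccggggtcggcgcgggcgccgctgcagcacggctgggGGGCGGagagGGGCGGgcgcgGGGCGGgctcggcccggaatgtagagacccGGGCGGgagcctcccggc
IRS2: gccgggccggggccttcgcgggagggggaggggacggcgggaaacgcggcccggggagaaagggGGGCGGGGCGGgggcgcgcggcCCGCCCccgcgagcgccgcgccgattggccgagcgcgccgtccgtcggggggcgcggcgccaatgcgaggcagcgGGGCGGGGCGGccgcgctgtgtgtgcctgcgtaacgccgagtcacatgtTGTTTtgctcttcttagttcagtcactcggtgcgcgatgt

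All 4 stretches were rich in G and C, at 78.4% for INSR, 81.2% for IGF1R, 80.8% for IRS1 and 76.4% for IRS2, where the median of 35116 RefSeq promoters of the same length was 58.0%. INSR held 4 GC boxes, IGF1R 2, IRS1 4 and IRS2 5, overlaps counted, and 42.6% of all promoters held at least 1. None of the 4 held the longer FOXO motif GTAAACA, found on either strand in 2.98% of promoters. IRS2 held TGTTTTG, the reverse strand of the insulin response motif CAAAACA, 40 bases before its start, and this motif includes the FOXO core. It was present in 4.30% of promoters. IRS1 held the core AAACA once, 230 bases before its start, and INSR and IGF1R held none, where 40.4% of promoters did. All these shares are over the 35116 promoters, which were not matched to the 4 stretches in G and C content. Among the other 6 genes, the window before a further RefSeq start of SH2B3 held GTAAACA 19 bases and CAAAACA 77 bases before that start, and that before a further start of GRB14, which did not pass the test for insulin, held CAAAACA 198 bases before it. A match in letters describes the sequence and does not show that a factor binds there.

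**Figure D2:**
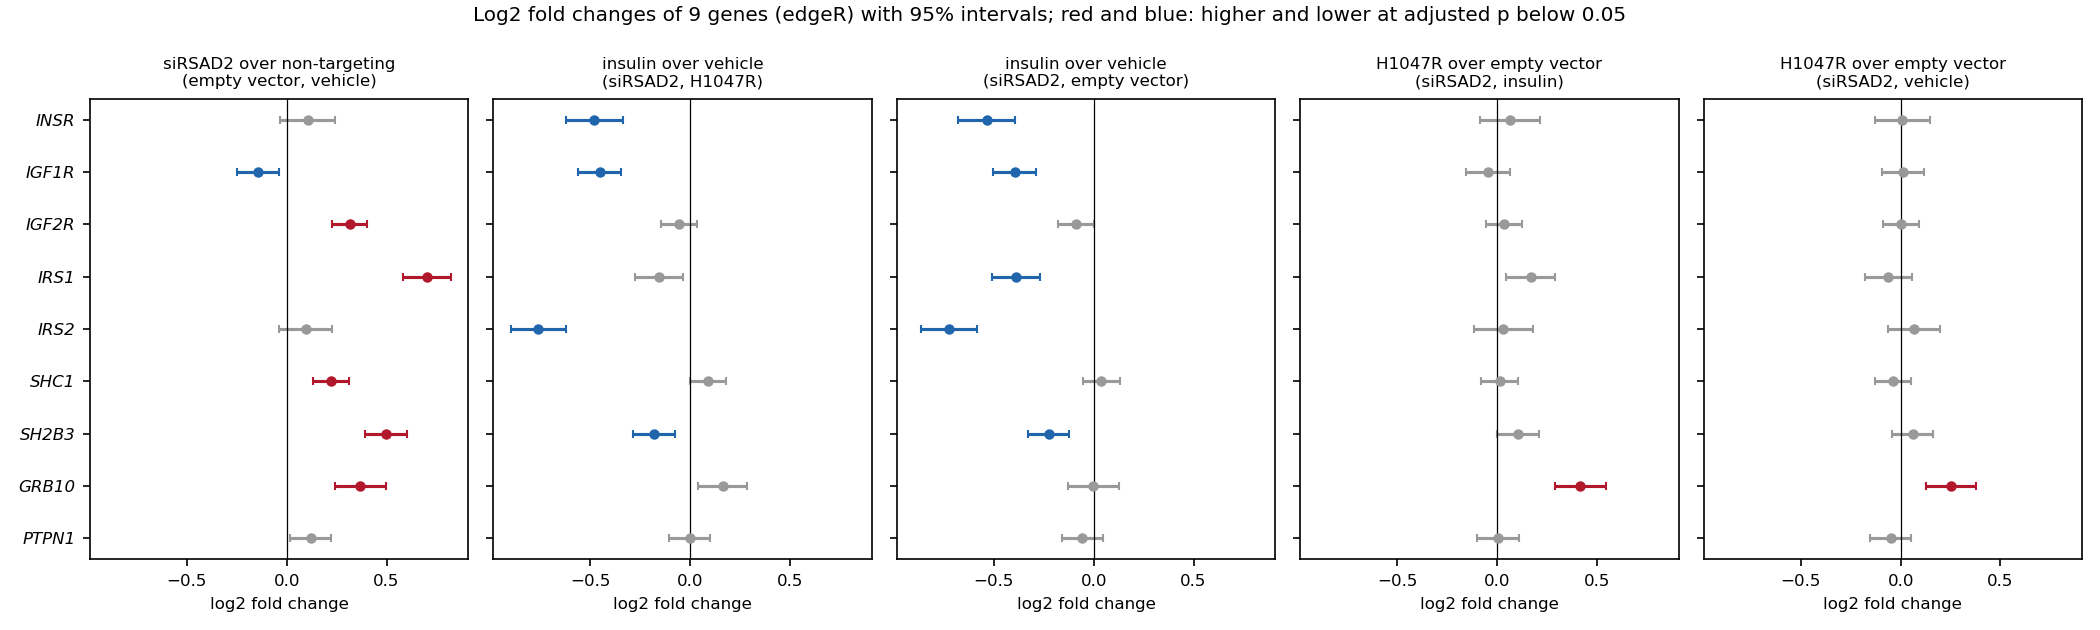
Log2 fold change (x axis) of 9 genes (y axis; GRB14 left out for its low counts) in 5 comparisons, with 95% intervals; red points were higher and blue points lower at an edgeR adjusted p below 0.05, grey points did not pass. INSR, IGF1R and IRS2 were to the left of 0 in both insulin panels, and GRB10 was the only gene past the threshold in both H1047R panels.

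Whether H1047R altered the response to insulin was tested by the interaction, the insulin effect with H1047R minus that with empty vector. None of the 10 genes passed, and none of the 23184 genes did (0.00% called by edgeR; smallest adjusted p = 0.493). DESeq2 also called 0 genes, and 1611 genes (6.95%) had an unadjusted edgeR p below 0.05. IRS1 had the widest difference among the 10 apart from GRB14, 0.23 ± 0.08 on the log2 scale, with a 95% interval from 0.06 to 0.40 (unadjusted p = 0.00985, edgeR adjusted p = 0.687). For IRS2, INSR and IGF1R the differences were -0.04 ± 0.10, 0.06 ± 0.10 and -0.06 ± 0.07. Their 95% intervals, -0.24 to 0.16, -0.15 to 0.26 and -0.21 to 0.09 on the log2 scale, included 0.

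**Figure D3:**
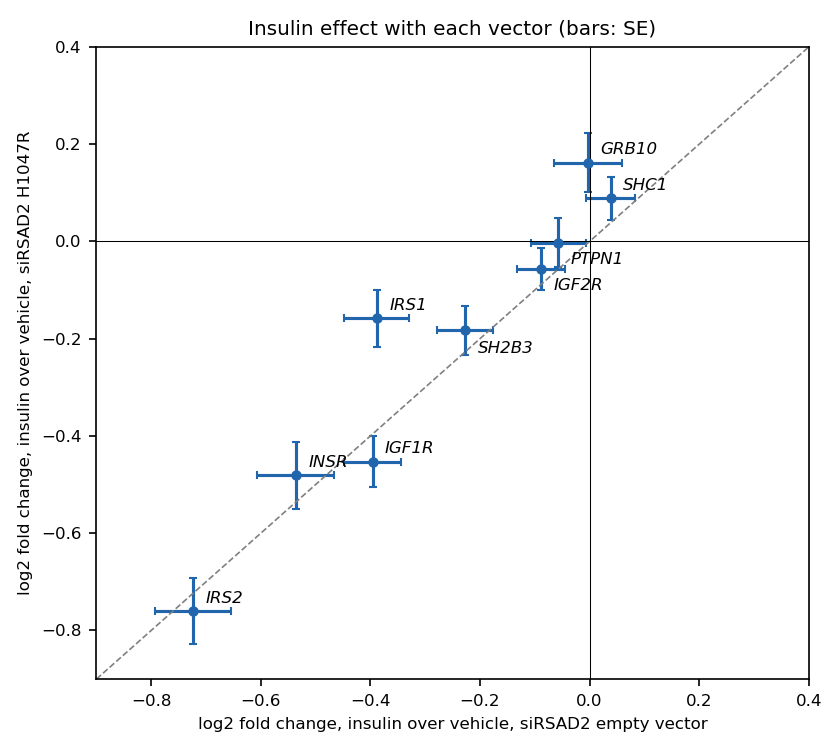
Log2 fold change of insulin over vehicle with H1047R (y axis) against that with empty vector (x axis) for 9 genes, with SE as bars and the line of equal effect dashed; the axes come from separate libraries. IRS2, INSR and IGF1R lie near the line at the lower left, and IRS1 lies above it, at -0.39 with empty vector and -0.16 with H1047R.

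The comparison of H1047R with empty vector asked whether mutant PI3K altered the receptor genes without insulin. Only GRB10 passed the threshold among the 10, in both treatments. Under vehicle 1.36% of tested genes were called (0.621% higher), and under insulin 0.285% (0.220% higher). GRB10 had 64.0, 63.8 and 66.0 CPM with H1047R and insulin, against 48.5, 48.0 and 48.8 CPM with empty vector and insulin. Under vehicle it had 54.0, 60.6 and 58.5 CPM with H1047R, against 49.2, 50.2 and 46.3 CPM with empty vector. The H1047R libraries were above the empty-vector libraries without overlap in both cases, as was so for 6.99% of tested genes under insulin and 10% under vehicle. The log2 fold change was 0.42 ± 0.06 under insulin (edgeR adjusted p = 0.000628) and 0.25 ± 0.06 under vehicle (0.0323), and averaged over treatments it was 0.33 ± 0.04 (2.06e-05; 2.72% of genes called).

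The vehicle call for GRB10 was lost in 11 of 25 alternatives, for example without H1047R vehicle library 2 (0.20 ± 0.07, edgeR adjusted p = 0.235). With a term for the opposite-strand split, which only empty-vector insulin library 3 separates from H1047R, the difference under insulin was 0.41 ± 0.09 and no longer passed (edgeR adjusted p = 0.103). Under vehicle it was 0.23 ± 0.12 (edgeR adjusted p = 0.939) and averaged over treatments 0.32 ± 0.09 (edgeR adjusted p = 0.744), so neither passed. With this term 20 genes were called under insulin, 3 under vehicle and 19 averaged, against 66, 316 and 630 without it. Empty-vector insulin library 3, on the same side of the split as the H1047R libraries, had 48.8 CPM of GRB10, against 48.5 and 48.0 CPM in the other libraries of its group. With 1 such library, H1047R and the split cannot be told apart under insulin either.

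The receptor and docking genes did not pass the test for H1047R under either treatment. INSR had log2 fold changes of 0.06 ± 0.07 under insulin and 0.01 ± 0.07 under vehicle, IGF1R of -0.04 ± 0.05 and 0.01 ± 0.05, and IRS2 of 0.03 ± 0.07 and 0.07 ± 0.06. IRS1 had 0.17 ± 0.06 under insulin (edgeR adjusted p = 0.263) and -0.06 ± 0.06 under vehicle. Without empty-vector insulin library 1, the highest of its group for IRS1, the difference under insulin was 0.25 ± 0.06 and passed (edgeR adjusted p = 0.0425), and without library 2, the lowest, it was 0.09 ± 0.05 (edgeR adjusted p = 0.881).

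The siRNA against RSAD2 was compared with non-targeting siRNA in cells with empty vector and vehicle. The non-targeting and siRSAD2 libraries share no replicate number. If these numbers mark separate series of experiments, the series and the siRNA cannot be told apart. This holds for every siRSAD2 difference given here and below, and the part of such a series was not tested. With 1 pool against RSAD2, loss of RSAD2 and other effects of the pool cannot be told apart either. Of the 10 genes, 5 rose and 1 fell, where 19.5% of all tested genes were called (9.82% higher, 9.72% lower). IRS1 rose the most. It had 91.9, 92.0 and 92.1 CPM with siRSAD2, against 58.6, 56.4 and 54.8 CPM with non-targeting siRNA, a log2 fold change of 0.70 ± 0.06 or 62.6% higher (edgeR adjusted p = 2.19e-10). IRS2, its relative, had 44.9, 45.3 and 42.5 CPM with siRSAD2, against 41.2, 41.4 and 41.7 CPM with non-targeting siRNA, and its log2 fold change of 0.10 ± 0.07 did not pass (edgeR adjusted p = 0.349).

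SH2B3 was the second highest riser, at 109, 105 and 105 CPM with siRSAD2, against 76.4, 73.1 and 76.4 CPM with non-targeting siRNA (0.50 ± 0.05, edgeR adjusted p = 1.12e-08). GRB10 had 49.2, 50.2 and 46.3 CPM with siRSAD2, against 34.3, 38.2 and 40.5 CPM with non-targeting siRNA (0.37 ± 0.06, edgeR adjusted p = 5.37e-05). For both of these inhibitory adaptors all siRSAD2 libraries were above all non-targeting libraries, as was so for 16.1% of tested genes. IGF2R had 613, 578 and 596 CPM with siRSAD2, against 488, 468 and 481 CPM with non-targeting siRNA (0.32 ± 0.04, edgeR adjusted p = 2.48e-06). SHC1 had 149.7, 151 and 148 CPM with siRSAD2, against 127, 131 and 127 CPM with non-targeting siRNA (0.22 ± 0.04, edgeR adjusted p = 0.000439). SHC1 has processed pseudogenes on chromosomes 17 and X, and reads shared with them would make its level less certain.

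The kinase receptors moved less. IGF1R had 90.8, 86.5 and 85.2 CPM with siRSAD2, against 97.0, 97.0 and 96.4 CPM with non-targeting siRNA, and its fall of 0.14 ± 0.05 on the log2 scale was just past the threshold (edgeR adjusted p = 0.0429) and lost in 16 of 24 alternatives, with adjusted p up to 0.181 without siRSAD2 vehicle library 2. INSR had 32.3, 37.8 and 36.9 CPM with siRSAD2, against 34.0, 33.1 and 32.2 CPM with non-targeting siRNA, groups that overlapped (0.11 ± 0.07, edgeR adjusted p = 0.305). PTPN1, the tyrosine phosphatase that dephosphorylates the activated insulin receptor, had 184, 182 and 177 CPM with siRSAD2, against 169, 165 and 166 CPM with non-targeting siRNA. Its log2 fold change of 0.12 ± 0.05 did not pass (edgeR adjusted p = 0.0944), but it did in 7 of 24 alternatives. Of the 8 stromal markers 3 rose and 5 fell in this comparison, and of the 8 epithelial markers 0 rose and 4 fell. Over all tested genes 9.82% were higher and 9.72% lower. The part of these markers in the siRSAD2 results was not tested.

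Ratios within libraries combined these changes. The IRS1 to IRS2 ratio of levels per kb was 2.35 ± 0.134 with H1047R and insulin, against 1.55 ± 0.0615 with H1047R and vehicle. With empty vector it was 2.13 ± 0.125 under insulin, against 1.69 ± 0.0616 under vehicle, and the non-targeting cells had the lowest ratio, 1.11 ± 0.0450 (SD, n = 3 each). Per kb of annotated exon, IRS1 and IRS2 were therefore near parity in non-targeting cells, and IRS1 was at least 2.01 times IRS2 in each insulin library. GRB10 relative to INSR and IGF1R together was 0.944 ± 0.0352 with H1047R and insulin, against 0.611 ± 0.0407 with H1047R and vehicle. With empty vector it was 0.704 ± 0.0272 under insulin, against 0.518 ± 0.0188 under vehicle, and it was 0.385 ± 0.0358 in non-targeting cells. These ratios were chosen after the levels were seen and were not tested.

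**Figure D4:**
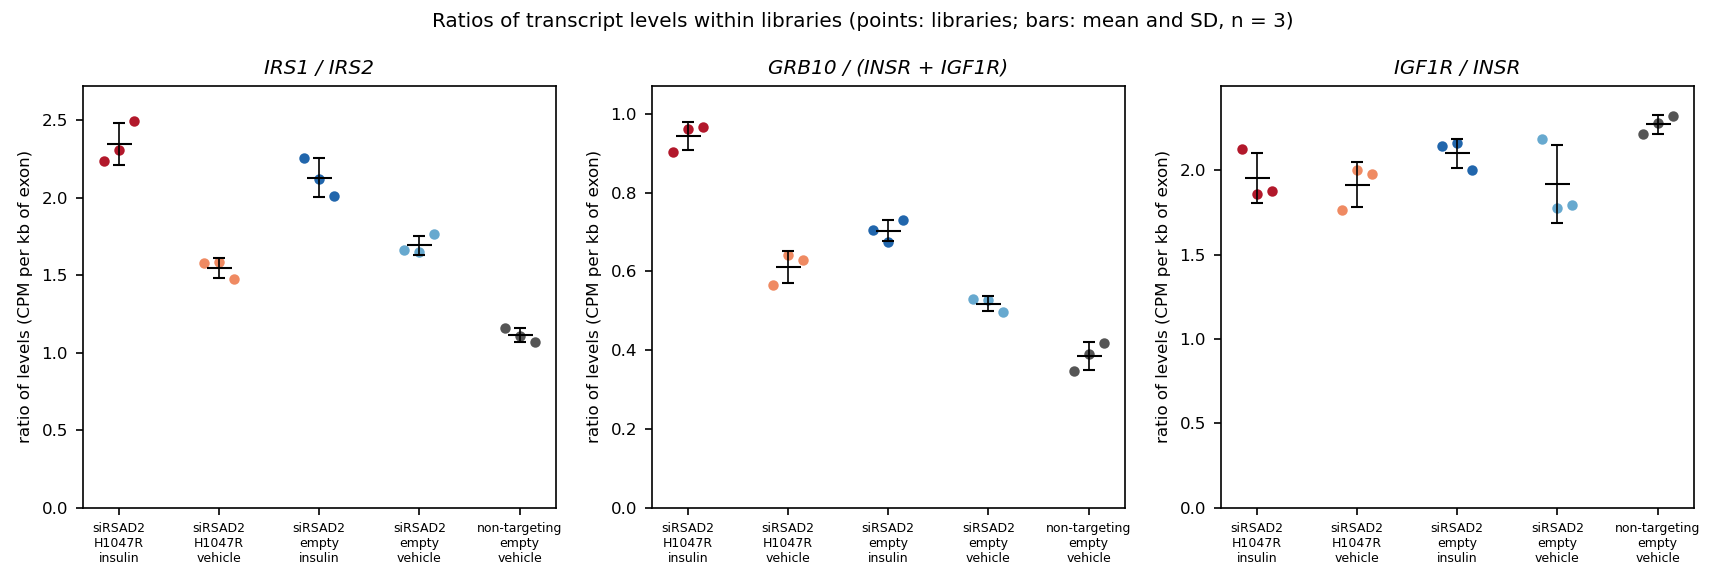
Ratios of transcript levels within a library (y axis, from CPM per kb of exon) in the 5 groups (x axis), with libraries as points and mean and SD of 3 as bars. IRS1 over IRS2 ran between 1.11 in non-targeting cells and 2.35 with H1047R and insulin, GRB10 over both kinase receptors between 0.385 and 0.944, and IGF1R over INSR between 1.92 and 2.27.

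The rest of the pathway was described with 5 further lists of 90 genes, 84 of them tested. Insulin raised 2 and lowered 6 with H1047R and raised 3 and lowered 13 with empty vector, and siRSAD2 raised 8 and lowered 17 (edgeR). Over all tested genes the shares called were 2.47%, 6.28% and 19.5% in these 3 comparisons. H1047R lowered none of the 84 and raised 1 under insulin, PIK3CA itself, the gene that the plasmid carries. Under vehicle it raised PIK3CA and MDM2, MDM2 by 0.19 ± 0.05 on the log2 scale (edgeR adjusted p = 0.047), where 0.285% of tested genes were called under insulin and 1.36% under vehicle. GAB2, a docking protein related to the IRS family, fell with insulin by 0.56 ± 0.10 with H1047R (edgeR adjusted p = 0.000642) and by 0.80 ± 0.10 with empty vector (1.8e-06). PAPPA, a protease that frees IGFs from their binding proteins, fell with insulin by 0.83 ± 0.07 with H1047R and 0.88 ± 0.07 with empty vector and rose with siRSAD2 by 1.01 ± 0.07 on the log2 scale. PIK3R3, a regulatory PI3K subunit, rose with insulin by 0.62 ± 0.06 with H1047R and by 0.70 ± 0.06 with empty vector. MDM2, a ubiquitin ligase best known for its control of p53, rose with insulin by 0.36 ± 0.05 with H1047R and by 0.68 ± 0.05 with empty vector, and with siRSAD2 by 1.12 ± 0.05. The receptor-type phosphatases PTPRF and PTPRE fell with insulin, PTPRF by 0.19 ± 0.05 with H1047R and 0.33 ± 0.05 with empty vector and PTPRE by 0.52 ± 0.11 with H1047R and 0.50 ± 0.11 with empty vector. Of 14 genes of receptor sorting none passed for insulin with either vector, where 2.47% of tested genes did with H1047R and 6.28% with empty vector. With siRSAD2, where 19.5% of tested genes were called and 9.72% were lower, 4 of the 14 fell, among them GGA2, an adaptor in the sorting of IGF2R, by 0.59 ± 0.05 (edgeR adjusted p = 3.15e-10).

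Across the 15 libraries the levels of INSR, IGF1R and IRS2 moved together, with Pearson r of 0.94 for INSR and IRS2, 0.90 for IGF1R and IRS2 and 0.86 for INSR and IGF1R on log2(CPM + 1). IRS1 went instead with SH2B3 (0.95) and IGF2R (0.94), and with IRS2 its r was 0.25. These values describe libraries that share groups, and no p is given. Among 13117 genes, those most like INSR were CCN1 (0.96), CEMIP (0.96) and CD44 (0.96), and those most like IGF1R were PIEZO2 (0.98), ALDH1A3 (0.97) and HEG1 (0.97). For IRS1 they were HPCAL1 (0.98), CHST2 (0.98) and VIPR1 (0.97), and for IRS2 GAS6 (0.96), HTRA1 (0.96) and MYLK (0.96).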

How the data were processed

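RNA-seq of 12Z cells was used as deposited: the authors trimmed read pairs from mRNA libraries made of 500 ng total RNA (Trim Galore, cutadapt), aligned them to hg38 with STAR and counted reads per gene, so the values are raw counts. The deposited reverse-strand counts were used, and the 4 summary entries per library (22.2 to 30.5% of read pairs) were left out. Of 60617 identifiers, 60357 matched GENCODE 44 with the version left out, which gave symbols and exon lengths. The human release used for counting is not known here, so levels per kb may rest on exons other than those counted. Genes averaging 1 count or more per library were fitted in 1 edgeR 4.0.16 model of 5 groups (quasi-likelihood F test, TMM, R 4.3.3, 10 residual degrees of freedom), with Benjamini-Hochberg adjustment over 23184 genes and a threshold of 0.05. SE is the log2 fold change over the root of F, and 95% intervals use the degrees of freedom of that test. Replicate libraries differed beyond sampling noise, so each was counted once. P-values measure the spread between libraries. Scripts were tested on simulated data. RSAD2, PIK3CA and up to 2 genes of each pathway list and comparison with the smallest p could be named. Alternatives were DESeq2 1.42.0, other scaling, filters, strand, threshold, groups fitted, a replicate block and leaving out each library. The members, lists and tests were chosen with earlier results of these data known.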

Additional observations from a re-analysis of the deposited data

How the results depend on the processing

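The 10 genes were refitted under 26 alternatives, 3 of them chosen after seeing the data, and no direction of a called value was reversed. The number of the 10 genes called for H1047R under vehicle was 1, and 0 at a threshold of 0.001, with a term for the opposite-strand split, and without siRSAD2 vehicle library 3 and empty-vector insulin library 2 together. It ranged between 0 and 1 as single libraries were left out. For H1047R under insulin it was 1, and 0 with the split term, and it ranged between 1 and 2 as single libraries were left out, with IRS1 added without empty-vector insulin library 1. Averaged over treatments it was 1, and 0 with the split term. Leaving out single libraries gave 5 to 7 genes for siRSAD2, 5 to 5 for insulin with empty vector and 3 to 4 for insulin with H1047R. Over all alternatives the last 2 ranges were 4 to 5 and 3 to 6. The 6 came from the 7 libraries with the higher opposite-strand share, which hold all 3 libraries of each H1047R group. There IRS1 and GRB10 were added, and 5.38% of tested genes were called for insulin with H1047R, against 2.47% with all libraries. Of 18 same-number pairs of libraries, 2 correlated above 0.1 in their deviations from group means (-0.26 to 0.32). Both lay between the 2 insulin groups, at 0.32 for number 1 and 0.27 for number 2, with 0.09 for number 3. Pairs of other numbers between these groups ran from -0.35 to 0.07. Whether replicate numbers pair the libraries is therefore not settled. With the replicate block 5 genes were called for insulin with empty vector, 3 with H1047R (SH2B3 lost, adjusted p = 0.0548), and 1 for H1047R under either treatment. The siRSAD2 comparison shares no numbers (4 to 6 against 1 to 3), so it had no block.

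Over all genes, the number called moved with the setting, from 13 to 463 for H1047R under insulin (66 as reported), 3 to 711 under vehicle (316), 19 to 1203 averaged (630), 205 to 1272 for insulin with H1047R (573), 353 to 1856 with empty vector (1457), 651 to 2198 averaged (1940), 1761 to 5241 for siRSAD2 (4530), 2892 to 7281 for any difference (6587) and 0 to 81 for the interaction (0). Depth limits GRB14 alone among the 10; the other genes had at least 414 counts in each library.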
